A study of Homo sapiens with 9 samples.

Results

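In MDA-MB-231 breast carcinoma cells, 6 RNA libraries from lines engineered to carry less or more of the depalmitoylating enzyme APT1 were set against 3 control libraries, to describe the genes that moved the same way whichever direction APT1 took. The 6 engineered libraries were 3 labelled shAPT1, from cells with a stable APT1 knockdown by a lentiviral short hairpin RNA followed by 72 hours of puromycin, and 3 labelled APT1wt, from cells with stable lentiviral overexpression of wild-type APT1. The 3 control libraries came from cells given a scrambled control RNA by lentivirus. All cells were of 1 established line, derived from a triple receptor-negative breast cancer and grown in medium with serum. The labels name puromycin for the knockdown alone, name no control vector for the overexpression, and do not say whether a line was 1 clone or a pool. Within a line, what the vector or the selection did and what the APT1 level did cannot be told apart. The labels also leave it unsaid whether replicate libraries were separate cultures, and if they were not, p-values measure technical spread alone.

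APT1, encoded by LYPLA1, removes palmitate from cysteines of membrane-attached proteins, which loosens their hold on the membrane, and its close relative APT2 is encoded by LYPLA2. The study concerned how APT1 bears on the unequal sharing of Notch and Wnt signalling between daughter cells. MDA-MB-231 cells are mesenchymal in character: they hold much vimentin and little E-cadherin, and they express MHC class II genes, which present peptides to CD4+ T cells and are usually found in antigen-presenting cells.

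Libraries held between 12381931 and 18667383 estimated reads, with at least 10 reads for 14134 to 15133 genes in each. Levels are in TPM, an abundance corrected for transcript length. The defining markers of the line were high, with VIM at 1802 to 2373 TPM in engineered and 2110 to 2373 TPM in control libraries, except SPARC, which lay at a median of 1.78 TPM in engineered and 1.19 TPM in control libraries. The hormone receptor genes ESR1 and PGR reached at most 0.219 TPM. ERBB2 stood at 28.1 to 37.3 TPM in engineered and 27.5 to 33.1 TPM in control libraries. The leukocyte markers PTPRC, CD3E and TYROBP were at or near 0 in both. The summed level of the 9 leukocyte markers, which here is nearly all CD74, HLA-DRA and LCP1, was 280.3 to 364 TPM in engineered and 501 to 643 TPM in control libraries. The 9 fibroblast markers summed to 13.3 to 24.7 TPM in engineered and 18 to 20.9 TPM in control libraries. The 7 endothelial markers summed to 59.3 to 106 TPM in engineered and 41.3 to 50.7 TPM in control libraries, most of it ESAM, while CDH5 and VWF were near 0. The part of other cells in the results was not tested, and in bulk RNA fewer cells of a type cannot be told apart from less RNA per cell.

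LYPLA1 behaved as the labels say. It stood at 38.2, 30.5 and 36.7 TPM in the shAPT1 libraries, at 169, 171 and 170 TPM in the APT1wt libraries, and at 87.1, 92.7 and 80.5 TPM in the control libraries. The 3 groups did not overlap. Its log2 fold change on summed reads was -1.29 ± 0.07 (SE) in shAPT1 and 0.60 ± 0.06 in APT1wt, so the lines lay on opposite sides of control and LYPLA1 is not among the genes that moved the same way. LYPLA2 was lower in shAPT1, where its log2 change was -0.26 ± 0.09 (adjusted p = 0.047). It did not pass in APT1wt, at -0.05 ± 0.09 (adjusted p = 0.73), or in the combined comparison, at -0.16 ± 0.08 (adjusted p = 0.16).

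Each of 15233 genes was tested with edgeR's quasi-likelihood test in a single fit of the 9 libraries, with Benjamini-Hochberg adjustment over all of them and a threshold of 0.05. The mean of both engineered groups, at equal weight, was above control for 1830 genes (12.0% of those tested) and below it for 1798 genes (11.8%). Against control, shAPT1 was higher for 1951 genes (12.8%) and lower for 1768 genes (11.6%). For APT1wt the counts were 1796 higher (11.8%) and 1772 lower (11.6%). A gene was taken to have moved the same way where all 3 of these comparisons passed with 1 sign, which held for 836 higher genes (5.49%) and 652 lower genes (4.28%), 1488 in all. These comparisons share the 3 control libraries, so a chance deviation of those libraries moves both lines together, and this count is not set against any expected number. A further 141 genes passed in both lines with opposite signs, 80 of them higher in shAPT1 and 61 higher in APT1wt. As the plot of the changes in each line shows, many same-way changes were small: 913 were under 1.5-fold, while 125 higher and 61 lower genes changed at least 2-fold in both lines. Their median log2 change was 0.53 for the higher genes and -0.46 for the lower genes, beside -0.01 for all genes tested. In TPM the 6 engineered libraries all lay above the 3 control libraries for 654 of the 836 higher genes, and all below for 443 of the 652 lower genes. Of all tested genes, 8.36% and 5.3% were separated in these ways. Both these medians and this separation come from the libraries that selected the genes, so they describe the selection and do not test it. The direct comparison of shAPT1 with APT1wt differed for 3829 genes (25.1%), and for 398 of the 1488 same-way genes, 164 of them with the larger change in shAPT1 and 234 in APT1wt. The number of same-way genes was 965 without control replicate 3, and the lower ones were 391 without it and 431 without control replicate 2. With the average transcript length of each gene and library in the fit it was 850.

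**Figure D1:**
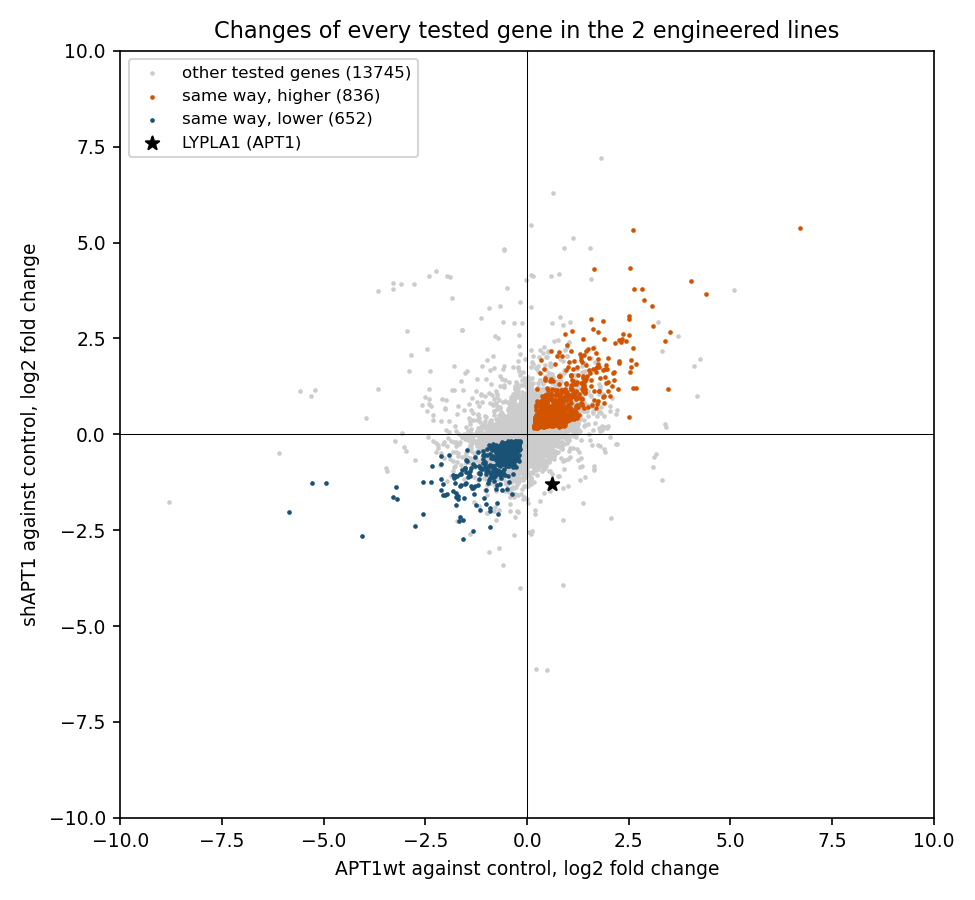
Log2 fold change of each of 15233 tested genes in shAPT1 (vertical) and APT1wt (horizontal), each against the same 3 control libraries. Orange points are the 836 genes higher and dark blue points the 652 genes lower in both lines, grey points are the other genes, and the star is LYPLA1, which lies below 0 in shAPT1 and above 0 in APT1wt.

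The same-way genes were unevenly placed along the genome. Chromosome 13 held 133 higher ones among its 271 tested genes (49.1%, against 5.49% of all tested genes). Its median log2 fold change was 0.30 in shAPT1 and 0.66 in APT1wt, and 91.5% of its genes lay above 0 in the combined comparison. In the plot of chromosome-wide levels, the median of its genes stood above the control mean by 0.40, 0.30 and 0.24 on the log2 scale in the shAPT1 libraries and by 0.67, 0.66 and 0.68 in the APT1wt libraries, and within 0.02 of it in each control library. Of 11 runs of at least 5 neighbouring same-way genes, 8 lay on chromosome 13, and the longest ran over 10 genes from COG3 to RB1 (chr13:45464898-48599436, GRCh38). The tumour suppressor gene RB1, at the end of that run, had a combined log2 fold change of 0.64 ± 0.07, with 88.7, 72.0 and 71.2 TPM in shAPT1, 83.7, 86.4 and 84.5 TPM in APT1wt, and 47.7, 55.5 and 52.8 TPM in control libraries. LATS2, a kinase of the Hippo pathway on the same chromosome, had a combined log2 fold change of 0.70 ± 0.06.

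Chromosomes X and 7 lay on the other side. Of the 484 tested genes of chromosome X, 94 were lower in both lines (19.4%, against 4.28% of all tested genes), and its median log2 fold change was -0.13 in shAPT1 and -0.37 in APT1wt. Of 756 genes on chromosome 7, 105 were lower (13.9%), with medians of -0.14 in shAPT1 and -0.25 in APT1wt. Chromosome 9 had 69 lower among 606 genes (11.4%) and chromosome 18 had 40 higher among 229 (17.5%). Outside chromosomes 7, 9, 13 and X there remained 1057 same-way genes, 673 higher and 384 lower, or 5.13% and 2.93% of the 13116 genes tested there. This remainder still holds chromosome 18, and chromosomes 14, 21 and 8, where 12.4%, 11.6% and 11.2% were higher. When each gene was corrected by the median deviation of its 50 nearest tested neighbours on each side, a step chosen after seeing the data, 964 genes moved the same way, of which 741 were among the 1488. Chromosome 13 then had 10 higher and 8 lower. RB1 and LATS2 lost the same-way call with it, at corrected combined values of 0.18 and 0.0063, and LATS2 stood at -0.14 in APT1wt. What underlies these chromosome-wide differences was not tested. Below, the corrected combined value is given for named genes that lose the same-way call with it.

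**Figure D2:**
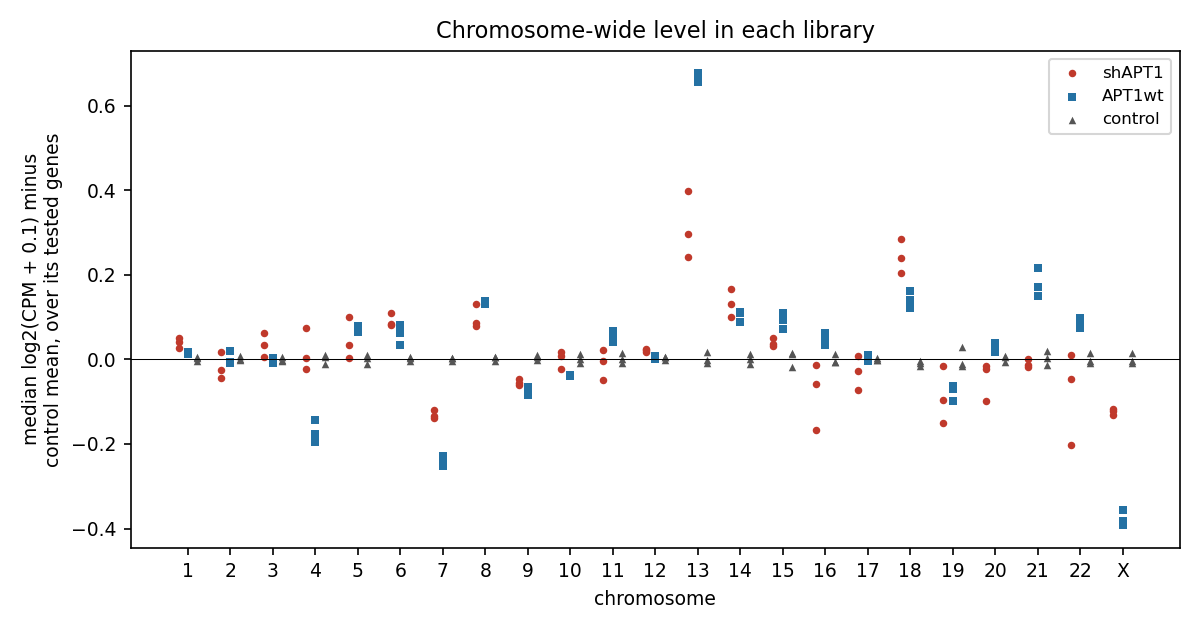
Median over the tested genes of each chromosome of log2(CPM + 0.1) minus the control mean, 1 point per library, for shAPT1 (red circles), APT1wt (blue squares) and control (grey triangles). Chromosome 13 stands highest, at 0.24 to 0.40 in shAPT1 and 0.66 to 0.68 in APT1wt, and chromosome X lies at -0.13 to -0.12 in shAPT1 and -0.39 to -0.36 in APT1wt, where it is the lowest.

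The 10 higher protein-coding genes that moved furthest in both lines were LGALS9, RASEF, NPPB, LYPD6B, BDKRB1, ALPP, FRMD3, ALPK2, GPRC5B and INHBA. NPPB encodes the precursor of B-type natriuretic peptide. It had 35.5, 27.3 and 30.5 TPM in shAPT1, 15.0, 14.7 and 15.9 TPM in APT1wt, and 2.41, 1.81 and 2.11 TPM in control libraries. No library of either line came near control, and shAPT1 was the higher of the lines. Its combined log2 fold change was 3.31 ± 0.18 (adjusted p = 3.3e-08). ALPK2, an alpha-kinase, had 17.1, 9.05 and 11.2 TPM in shAPT1, 7.90, 10.0 and 11.6 TPM in APT1wt, and 1.59, 2.24 and 2.48 TPM in control libraries, a log2 fold change of 2.36 ± 0.19. GPRC5B, an orphan receptor of the G protein-coupled kind, had a log2 fold change of 2.35 ± 0.21. The lines were not called different for either gene.

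RASEF, a Rab-family GTPase with a calcium-binding domain, and FRMD3, a FERM-domain protein of the membrane skeleton, lie close together on chromosome 9 and rose together. RASEF had 3.27, 3.05 and 3.50 TPM in shAPT1, 2.93, 2.09 and 2.43 TPM in APT1wt, and 0.428, 0.300 and 0.779 TPM in control libraries (log2 fold change 3.21 ± 0.19, adjusted p = 6.2e-08). FRMD3 had 4.24, 4.81 and 4.24 TPM in shAPT1, 4.77, 5.49 and 3.89 TPM in APT1wt, and 1.02, 0.520 and 0.867 TPM in control libraries (log2 fold change 2.54 ± 0.14, adjusted p = 2.5e-08). For both genes every engineered library lay above every control library, while shAPT1 and APT1wt overlapped for FRMD3. The median of chromosome 9 lay slightly below control. Both genes, though, lie within its stretch of 51 neighbouring tested genes with the highest median (chr9:68393881-88584274). There the median combined log2 fold change was 0.19. After the neighbour correction the combined values were 3.16 for RASEF and 2.48 for FRMD3.

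Several of the largest changes rest on few reads. LGALS9, which encodes the glycan-binding protein galectin-9 and has near-identical copies, had 88 reads over the 6 engineered and 2 over the 3 control libraries. That is a ratio of 19.0 after scaling for depth, with an exact 95% interval of 5.10 to 159 that covers counting error only. The kinin receptor gene BDKRB1 had 27.0, 21.7 and 17.6 reads in shAPT1, 13, 16.1 and 18.2 in APT1wt, and 0, 1.00 and 6 in control libraries. Placental alkaline phosphatase, ALPP, which also has a near-identical neighbour, had 16 to 33.0 reads in engineered and 2.00 to 3.00 reads in control libraries. LYPD6B, of the family of GPI-anchored LY6 proteins, was highest in shAPT1, with 17.4, 13.8 and 17.5 TPM in shAPT1, 2.24, 3.66 and 2.22 TPM in APT1wt, and 1.13, 0.126 and 0.295 TPM in control libraries. BDKRB1 lost the same-way call with the transcript length in the fit.

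Some further higher genes were more abundant. EDIL3 and SDC2 stood outside the naming rule and were chosen after their values were seen. EDIL3, a secreted integrin ligand, had 44.9 to 57.0 TPM in shAPT1, 33.2 to 44.6 TPM in APT1wt and 6.87 to 13.7 TPM in control libraries, with a log2 fold change of 2.28 ± 0.13. The cell-surface proteoglycan gene SDC2 had 51.3 to 55.6 TPM in shAPT1, 29.4 to 40.9 TPM in APT1wt and 10.6 to 12.2 TPM in control libraries. LCP1, the actin-bundling protein L-plastin of leukocytes and many carcinoma lines, had 47.7, 36.4 and 41.3 TPM in shAPT1, 71.9, 59.0 and 54.8 TPM in APT1wt, and 10.0, 10.8 and 9.46 TPM in control libraries. LCP1 lies on chromosome 13, yet its log2 fold change of 2.25 ± 0.08 was still 1.79 after the neighbour correction.

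**Figure D3:**
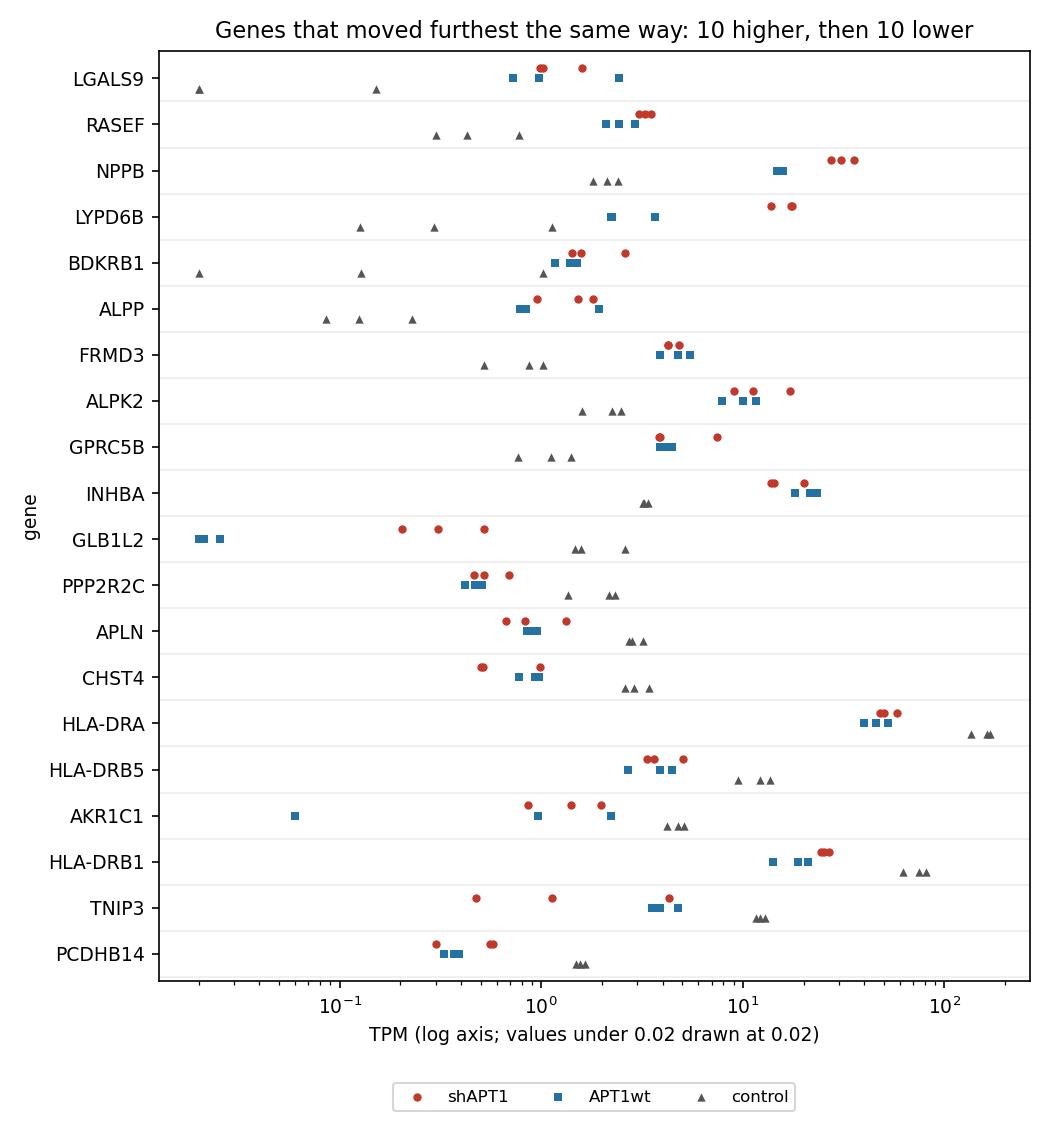
TPM on a log axis of the 10 higher and 10 lower protein-coding genes with the largest change in the less changed line, 1 point per library, shAPT1 (red circles) above APT1wt (blue squares) above control (grey triangles) in each row. For each gene the 6 engineered libraries lie on 1 side of the 3 control libraries, which the rule required, and LYPD6B and GLB1L2 differ most between the lines.

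Among the 10 lower genes, 3 encoded MHC class II chains (HLA-DRA, HLA-DRB1 and HLA-DRB5, described below), and the others were GLB1L2, PPP2R2C, APLN, CHST4, AKR1C1, TNIP3 and PCDHB14. APLN, the gene of the secreted peptide apelin, had 0.833, 0.669 and 1.33 TPM in shAPT1, 0.884, 0.955 and 0.847 TPM in APT1wt, and 2.74, 2.83 and 3.19 TPM in control libraries. The lines overlapped and were separate from control, and the log2 fold change was -1.69 ± 0.18 (adjusted p = 1.2e-05). APLN lies on chromosome X, and its value after the neighbour correction was -1.51. PPP2R2C, a regulatory subunit of protein phosphatase 2A, had 0.462 to 0.694 TPM in shAPT1, 0.417 to 0.508 TPM in APT1wt and 1.36 to 2.32 TPM in control libraries. CHST4, a sulfotransferase of glycans, had 0.5 to 0.985 TPM in shAPT1, 0.773 to 0.980 TPM in APT1wt and 2.61 to 3.41 TPM in control libraries. The protocadherin gene PCDHB14 stood at 0.299 to 0.576 TPM in shAPT1, 0.330 to 0.389 TPM in APT1wt and 1.49 to 1.66 TPM in control libraries, within a cluster of similar genes among which reads can be split.

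TNIP3, which encodes an inhibitor of NF-kappaB signalling, varied within shAPT1. It had 4.32, 0.474 and 1.14 TPM in shAPT1, 3.89, 4.79 and 3.55 TPM in APT1wt, and 11.7, 12.8 and 12.2 TPM in control libraries, a log2 fold change of -2.15 ± 0.27 (adjusted p = 5.5e-05). TNIP3 lost the same-way call in the deposited table. GLB1L2, which encodes a beta-galactosidase-like protein, was nearly silent in APT1wt. It had 8, 8 and 18 reads in shAPT1, 0, 1.00 and 1.00 in APT1wt, and 40.1, 36.0 and 44.0 in control libraries. The ratio of APT1wt to control was 0.0145 with an exact 95% counting interval of 0.00173 to 0.0534.

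Genes of antigen presentation fell in both lines. Of 26 tested genes of MHC class I and II presentation, 13 were lower in both lines (50%, against 4.28% of all tested genes), and between 11 and 15 were under the 20 alternative settings. The median combined log2 fold change of the list was -0.32, beside -0.01 for all genes. The members that moved furthest were class II genes and CIITA, their coactivator. HLA-DRA, the alpha chain of HLA-DR, had 57.9, 48.2 and 50.1 TPM in shAPT1, 39.8, 52.5 and 46.0 TPM in APT1wt, and 135, 169 and 162 TPM in control libraries. The lines overlapped each other and lay far below control. Its log2 fold change was -1.65 ± 0.09 in shAPT1 and -1.75 ± 0.10 in APT1wt.

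HLA-DRB1, the main beta chain of HLA-DR, had 25.3, 24.4 and 26.8 TPM in shAPT1, 14.1, 21.1 and 18.8 TPM in APT1wt, and 62.3, 80.8 and 75.1 TPM in control libraries (log2 fold change -1.79 ± 0.09, adjusted p = 2.4e-08). HLA-DRB5 followed at lower levels, with 3.35 to 5.06 TPM in shAPT1, 2.70 to 4.43 TPM in APT1wt and 9.49 to 13.6 TPM in control libraries, but it is so similar to HLA-DRB1 that reads can be split between them. HLA-DPA1 and HLA-DPB1, the chains of HLA-DP, had log2 fold changes of -1.52 ± 0.10 and -1.68 ± 0.13, and HLA-DQB1 had -1.43 ± 0.23, a call lost without control replicate 2. HLA-DMB and HLA-DMA, which form the chaperone that loads peptides onto class II, had -1.37 ± 0.12 and -1.24 ± 0.11. CD74, the invariant chain, had 215, 195 and 206 TPM in shAPT1, 184, 251 and 251 TPM in APT1wt, and 356, 463 and 452 TPM in control libraries, a log2 fold change of -0.99 ± 0.09.

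CIITA, the coactivator that class II genes depend on, fell as well, and it fell further in shAPT1. It had 3.51, 3.40 and 3.70 TPM in shAPT1, 6.38, 7.88 and 4.96 TPM in APT1wt, and 10.8, 15.8 and 11.6 TPM in control libraries. None of these groups overlapped. The log2 fold change was -1.81 ± 0.11 in shAPT1 and -1.0 ± 0.10 in APT1wt, a difference of -0.81 between the lines (adjusted p = 0.00017), whereas HLA-DRB1, HLA-DMA, HLA-DPA1 and HLA-DPB1 were lower in APT1wt than in shAPT1 by 0.44 to 0.76. CIITA, HLA-DMA and the DP and DQ genes stood outside the naming rule and were picked with their values in view. The class I heavy chain gene HLA-E had a log2 fold change of -0.32 ± 0.05. The class I light chain gene B2M did not pass, with 1457, 1237 and 1164 TPM in shAPT1, 1159, 1353 and 1301 TPM in APT1wt, and 1184, 1247 and 1261 TPM in control libraries.

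**Figure D4:**
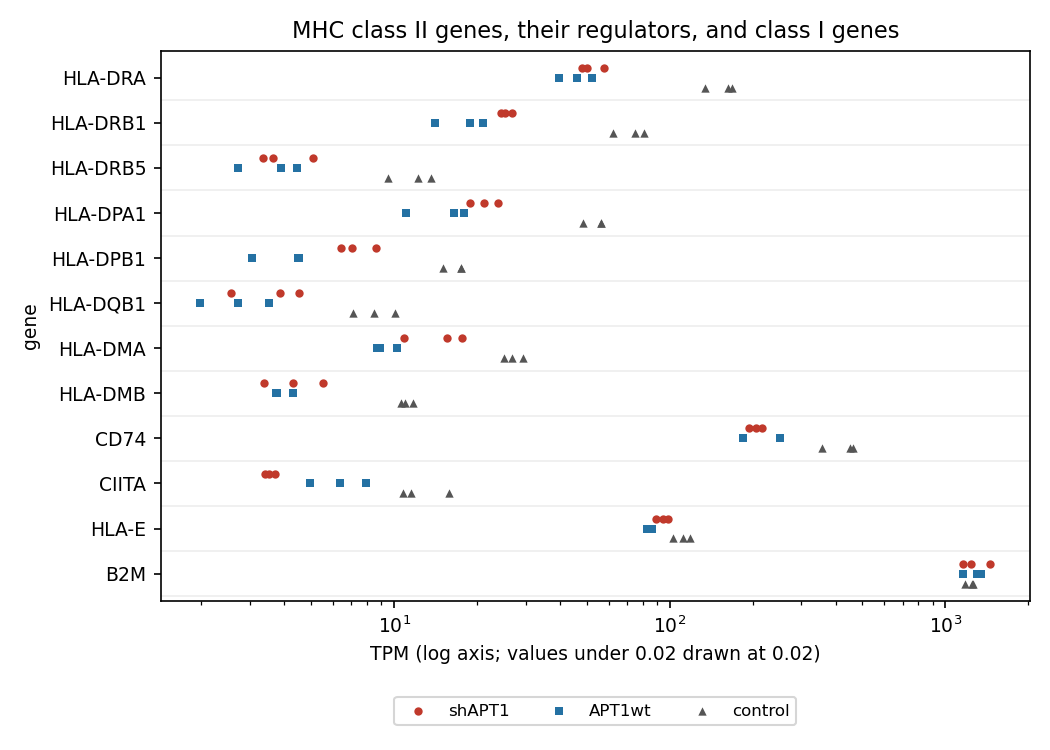
TPM on a log axis of class II genes, the invariant chain CD74, the coactivator CIITA, and class I genes, 1 point per library, shAPT1 (red circles) above APT1wt (blue squares) above control (grey triangles). Class II genes, CD74 and CIITA lie below control in all 6 engineered libraries, and B2M overlaps control.

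Class II promoters are known for a shared upstream module in which an X box, bound by the RFX complex, stands ahead of a Y box, bound by NF-Y, and CIITA joins the assembled proteins. The promoters of 3 of the genes that fell are shown because they hold core letters of both boxes. Each runs from 250 bases before to 50 bases after the transcription start (RefSeq, GRCh38.p14), is written 5′ to 3′ on the gene's own strand, and has the X box core AACNGATG and the Y box core GATTGG, on either strand, in capitals.
HLA-DRB1 (chr6:32589799-32590098, minus strand): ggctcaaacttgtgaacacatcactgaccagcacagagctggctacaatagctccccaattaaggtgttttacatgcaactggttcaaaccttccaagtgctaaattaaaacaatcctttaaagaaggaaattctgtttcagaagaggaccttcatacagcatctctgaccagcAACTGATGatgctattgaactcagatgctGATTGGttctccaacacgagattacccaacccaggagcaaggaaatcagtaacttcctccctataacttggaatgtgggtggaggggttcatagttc
HLA-DRB5 (chr6:32530238-32530537, minus strand): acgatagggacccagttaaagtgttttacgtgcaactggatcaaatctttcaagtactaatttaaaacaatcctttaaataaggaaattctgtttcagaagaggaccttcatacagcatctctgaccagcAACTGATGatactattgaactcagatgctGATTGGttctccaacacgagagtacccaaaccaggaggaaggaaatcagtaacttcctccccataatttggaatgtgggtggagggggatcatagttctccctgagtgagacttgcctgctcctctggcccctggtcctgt
HLA-DMB (chr6:32940979-32941278, minus strand): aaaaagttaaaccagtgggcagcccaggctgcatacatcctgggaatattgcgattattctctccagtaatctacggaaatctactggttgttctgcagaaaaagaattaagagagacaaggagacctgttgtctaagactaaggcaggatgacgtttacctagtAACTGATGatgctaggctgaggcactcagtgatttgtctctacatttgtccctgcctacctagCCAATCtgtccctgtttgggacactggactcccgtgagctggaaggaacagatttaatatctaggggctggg
In HLA-DRB1 and HLA-DRB5 the marked cores were 21 bases apart, and in HLA-DMB 55 bases. The Y core of HLA-DMB was matched on the opposite strand, as CCAATC. Only exact core letters were marked, so a box with other letters would be missed, and the spacing holds for the marked letters alone. Of 12 class II and related genes looked up, 10 had a promoter in the table, of which 3 held the X box core and 7 the Y box core. Over all 35116 promoters, 1.99% held the X box core, 15.1% the Y box core and 0.279% both. HLA-DPB1, HLA-DQB1 and HLA-DMA held the Y core alone, and HLA-DPA1 and CD74 held neither, though all of these genes fell. A match here describes letters and is not evidence of binding in these cells.

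Genes of activin and TGF-beta signalling rose in both lines at several levels of the pathway. Activins are dimers of inhibin beta chains, which signal through SMAD2 and SMAD3 and are held back by follistatin. Of 26 tested genes of TGF-beta and activin response, 9 were higher (34.6%, against 5.49% of all tested genes) and 2 lower (7.69%, against 4.28%) in both lines, and their median combined log2 fold change was 0.35, beside -0.01 for all genes. The ligand gene INHBA, for the inhibin beta A chain, had 20.1, 14.3 and 13.8 TPM in shAPT1, 18.1, 23.2 and 21.6 TPM in APT1wt, and 3.25, 3.20 and 3.40 TPM in control libraries. The lines overlapped and both stood far above control (log2 fold change 2.42 ± 0.16, adjusted p = 1.9e-07). INHBA lies on chromosome 7, where the median gene lay below control. INHBB, for the beta B chain, was scarce, at 0.455 to 0.568 TPM in shAPT1, 0.499 to 0.616 TPM in APT1wt and 0.115 to 0.205 TPM in control libraries.

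Other ligands moved with them. TGFB2, a TGF-beta ligand, had 195, 140 and 134 TPM in shAPT1, 97.0, 105 and 112 TPM in APT1wt, and 65.0, 71.1 and 63.7 TPM in control libraries (log2 fold change 0.91 ± 0.09). The morphogen gene BMP4 had 82.9 to 121 TPM in shAPT1, 65.7 to 79.1 TPM in APT1wt and 46.1 to 55.1 TPM in control libraries. Both were higher in shAPT1 than in APT1wt, and BMP4 lost the same-way call after the neighbour correction, with a combined value of 0.66.

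Among antagonists in the list, FST and SMAD6 rose in both lines. The list members SKIL and PMEPA1 were higher in the combined comparison, at 0.38 and 0.68, but were not same-way genes. SMAD7, FSTL3 and BAMBI did not pass in the combined comparison, with log2 fold changes of 0.05 ± 0.10, 0.04 ± 0.10 and 0.33 ± 0.13. FST, follistatin, which binds and neutralises activin, had 36.8, 47.9 and 44.5 TPM in shAPT1, 22.2, 29.6 and 27.4 TPM in APT1wt, and 11.3, 14.5 and 14.5 TPM in control libraries (log2 fold change 1.38 ± 0.12). SMAD6, the inhibitory SMAD that restrains BMP signalling, had 3.96, 2.75 and 4.44 TPM in shAPT1, 5.30, 4.81 and 4.89 TPM in APT1wt, and 1.18, 0.956 and 1.00 TPM in control libraries (log2 fold change 1.67 ± 0.15). LTBP3, which tethers latent TGF-beta to the matrix, had 14.5 to 32.1 TPM in shAPT1, 38.7 to 40.2 TPM in APT1wt and 9.79 to 12.9 TPM in control libraries. FST changed more in shAPT1, while SMAD6 and LTBP3 changed more in APT1wt.

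CDKN1A, the cell-cycle inhibitor p21 and a target of both TGF-beta and p53, was among the lower members. It had 37.7, 23.5 and 28.8 TPM in shAPT1, 43.2, 40.1 and 35.9 TPM in APT1wt, and 51.9, 63.3 and 63.8 TPM in control libraries (log2 fold change -0.80 ± 0.11).

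Among the lists with at least 10 tested members, epithelial genes had the greatest share that rose. Of 19 tested, 11 were higher in both lines (57.9%, against 5.49% of all tested genes), with a median log2 fold change of 0.54, and 9 to 12 were under the alternative settings. None lies on chromosome 13 or X. CLDN4 was lower in the combined comparison, at -0.48, with -0.84 in shAPT1 and -0.12 in APT1wt. CLDN3, EPCAM, PKP3 and CLDN7 did not pass there, at -0.51, -0.03, 0.09 and 0.10. Nor did CLDN1, KRT19 and SPINT1, at 0.29, 0.29 and 0.56. DSP, desmoplakin, which anchors intermediate filaments at desmosomes, had 19.2, 16.3 and 18.2 TPM in shAPT1, 16.9, 19.4 and 18.9 TPM in APT1wt, and 6.63, 7.67 and 7.40 TPM in control libraries. The lines overlapped each other but not control, and the log2 fold change was 1.33 ± 0.07 (adjusted p = 1.9e-08). OCLN, the tight-junction protein occludin, had 15.8, 16.2 and 18.5 TPM in shAPT1, 12.3, 13.5 and 14.3 TPM in APT1wt, and 6.44, 8.52 and 7.56 TPM in control libraries. LSR, which marks tricellular junctions, had a log2 fold change of 0.87 ± 0.08. The simple epithelial keratin genes KRT8, KRT18 and KRT7, among the most abundant of the list, had 0.54 ± 0.09, 0.55 ± 0.08 and 0.47 ± 0.06, with KRT18 at 295 to 403 TPM in shAPT1, 324 to 347 TPM in APT1wt and 223 to 235 TPM in control libraries. LSR, KRT7, KRT8 and KRT18 were chosen after their values were seen.

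Other epithelial members were less firm. ST14, the membrane protease matriptase, had 1.08, 2.08 and 1.64 TPM in shAPT1, 0.458, 1.14 and 1.23 TPM in APT1wt, and 0.216, 0.309 and 0.540 TPM in control libraries, with an overlap between APT1wt and control. It kept the same-way call under 13 of 20 settings. CDH1, the E-cadherin gene, passed on summed reads with a log2 fold change of 1.08 ± 0.30 but had 0.647, 1.29 and 0.434 TPM in shAPT1, 0.586, 0.566 and 2.76 TPM in APT1wt, and 0.555, 1.39 and 0.383 TPM in control libraries. These values overlapped, CDH1 kept the call under 8 of 20 settings, and with transcript length in the fit its value was 0.43 (adjusted p = 0.72).

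Mesenchymal markers did not fall as a group. Of 16 tested, 4 were higher (25%, against 5.49% of all tested genes) and 2 lower (12.5%, against 4.28%) in both lines. In the combined comparison 6 were higher and 2 lower, against 12.0% and 11.8% of all tested genes. VIM did not pass there, with a log2 fold change of -0.15. CDH11, the mesenchymal cadherin-11, had 41.0, 38.9 and 49.8 TPM in shAPT1, 21.5, 27.3 and 26.1 TPM in APT1wt, and 9.74, 10.4 and 9.56 TPM in control libraries (log2 fold change 1.81 ± 0.08, adjusted p = 5.1e-09). FN1, fibronectin, had 116, 80.5 and 87.8 TPM in shAPT1, 68.2, 102 and 85.1 TPM in APT1wt, and 29.9, 44.8 and 41.0 TPM in control libraries (log2 fold change 1.13 ± 0.12). For both genes all engineered libraries exceeded all control libraries. TNC, the matrix glycoprotein tenascin-C, was lower, at 9.65, 13.3 and 14.5 TPM in shAPT1, 13.3, 14 and 12.6 TPM in APT1wt, and 19.7, 25.7 and 21.9 TPM in control libraries.

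Contractile genes and targets of serum response factor were higher for 9 of 21 (42.9%, against 5.49% of all tested genes) and lower for 1 (4.76%, against 4.28%). The lower one was SMTN, which encodes the contractile-cell protein smoothelin. Its log2 change was -0.50 ± 0.06, and it was chosen after its values were seen. TAGLN, the actin-binding protein transgelin, had 85.6, 62.8 and 70.8 TPM in shAPT1, 49.9, 49.6 and 52.4 TPM in APT1wt, and 21.0, 25.3 and 23.9 TPM in control libraries (log2 fold change 1.30 ± 0.09). MYH10, the heavy chain of non-muscle myosin IIB, had 35.0 to 50.4 TPM in shAPT1, 39.0 to 53.6 TPM in APT1wt and 20.9 to 24.0 TPM in control libraries. FHL2, a LIM-domain cofactor, had a log2 fold change of 0.73 ± 0.07. CNN1, calponin, overlapped control in TPM, with 1.93 to 2.36 TPM in shAPT1, 1.17 to 2.98 TPM in APT1wt and 1.10 to 2.85 TPM in control libraries, and kept the call under 10 of 20 settings. The count for the list was 4 without APT1wt replicate 3, and 5 without each of APT1wt replicates 1 and 2 and control replicates 1 and 2.

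Matrix genes changed in both directions. Of 32 collagens and matrix glycoproteins, 10 were higher (31.2%, against 5.49% of all tested genes) and 2 lower (6.25%, against 4.28%). Of 32 matrix proteases and inhibitors, 7 were higher (21.9%) and 5 lower (15.6%), against the same shares. COL4A1, a chain of basement-membrane collagen, had 46.6, 38.4 and 43.3 TPM in shAPT1, 41.1, 55.7 and 54.3 TPM in APT1wt, and 15.7, 20.1 and 20 TPM in control libraries. It lies on chromosome 13, and its log2 fold change of 1.26 ± 0.10 was 0.89 after the neighbour correction. THBS1, thrombospondin-1, a matrix glycoprotein that can activate latent TGF-beta, had 1101, 1010 and 1009 TPM in shAPT1, 557, 596 and 545 TPM in APT1wt, and 304, 463 and 409 TPM in control libraries. LOX, which cross-links collagen, had 18.3 to 26.1 TPM in shAPT1, 16.2 to 17.6 TPM in APT1wt and 8.58 to 9.56 TPM in control libraries. LOX and THBS1 were chosen after their values were seen.

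TIMP3, an inhibitor of metalloproteinases that stays bound to the matrix, had 68.2, 96.2 and 90.2 TPM in shAPT1, 57.1, 82.0 and 80.1 TPM in APT1wt, and 23.2, 28.8 and 24.9 TPM in control libraries (log2 fold change 1.60 ± 0.13). The proteoglycan-cleaving protease gene ADAMTS9 had a log2 fold change of 1.33 ± 0.20. Its relative ADAMTS1 rose in both lines but far more in shAPT1, with 28.4, 28.8 and 32.8 TPM in shAPT1, 7.91, 4.2 and 3.87 TPM in APT1wt, and 2.01, 1.94 and 2.81 TPM in control libraries. Among the lower members, PLAU, the gene of the protease urokinase, had 137, 163 and 184 TPM in shAPT1, 154, 175 and 169 TPM in APT1wt, and 249, 278 and 277 TPM in control libraries (log2 fold change -0.74 ± 0.07). PLAU was chosen after its values were seen. The integrin beta 3 gene ITGB3 had 2.96 to 3.91 TPM in shAPT1, 3.06 to 3.79 TPM in APT1wt and 0.624 to 1.51 TPM in control libraries.

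**Figure D5:**
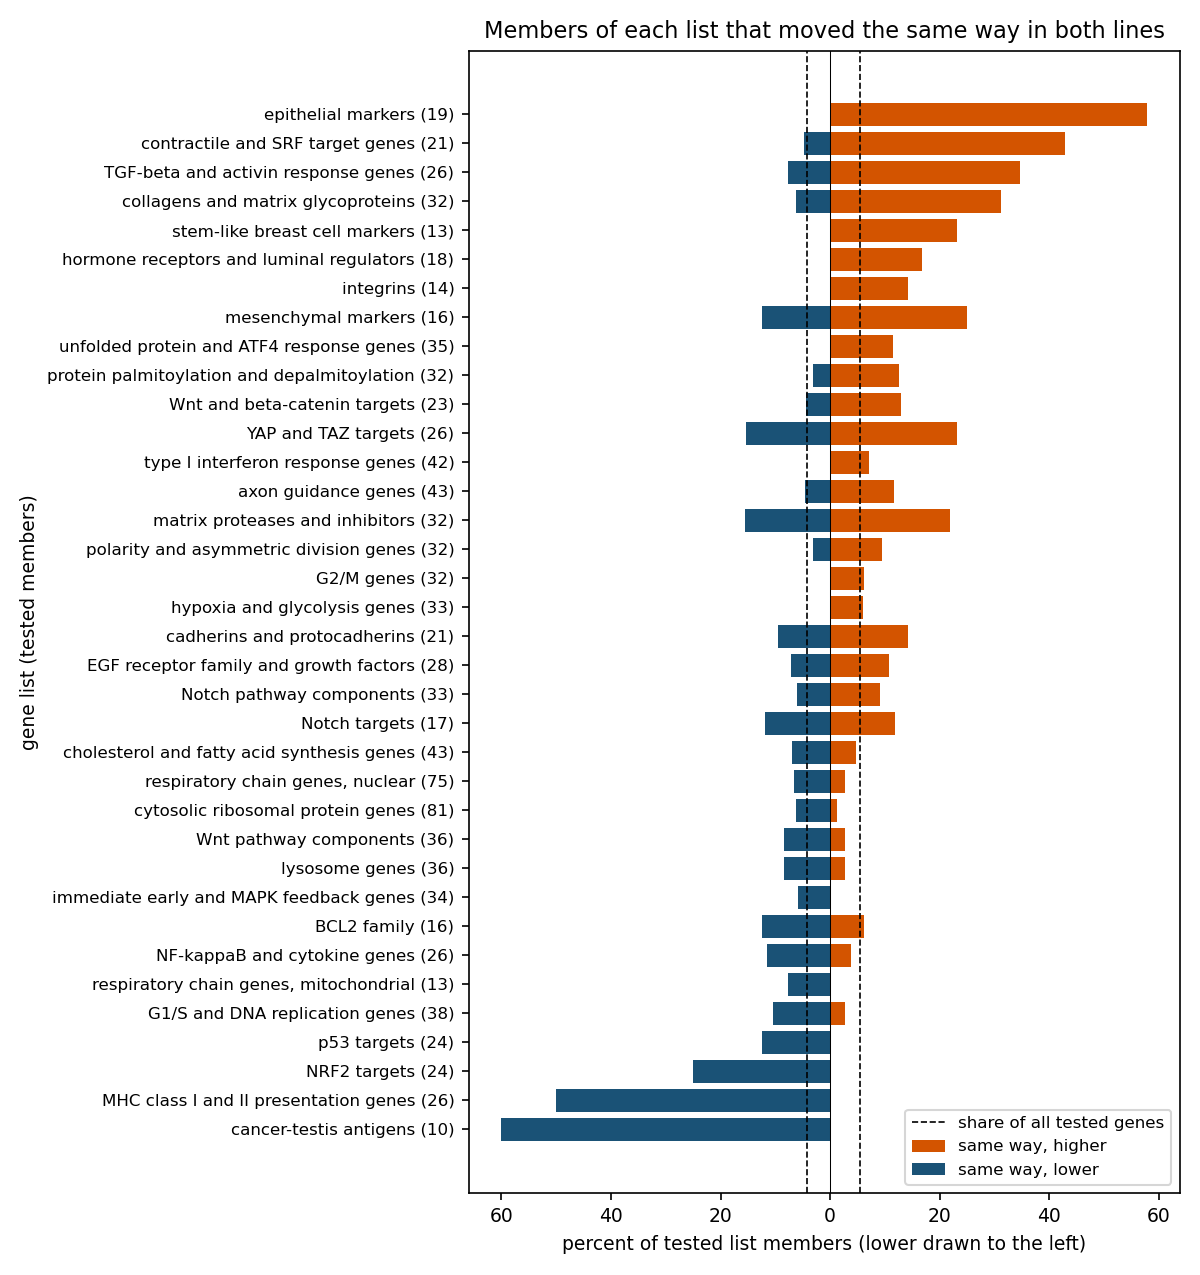
Percent of the tested members of each list with at least 10 tested members that were higher (orange, right) or lower (dark blue, left) in both lines, with the number tested in brackets and the shares of all tested genes, 5.49% higher and 4.28% lower, as dashed lines. Epithelial markers reach 57.9% higher, and MHC presentation genes 50% and cancer-testis antigens 60% lower.

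Targets of the oxidative stress regulator NRF2 were lower in both lines for 6 of 24 (25%, against 4.28% of all tested genes). That count was 2 without control replicate 1, 3 without APT1wt replicate 2 or 3, 10 without APT1wt replicate 1, and 2 with transcript length in the fit. In the combined comparison 14 were lower, and in single lines 16 in shAPT1 and 9 in APT1wt. Among all tested genes, 11.8% were lower in the combined comparison and 11.6% in each line. AKR1C3 and AKR1C1 encode similar aldo-keto reductases among which reads can be split. AKR1C3 had 5.56, 4.95 and 5.56 TPM in shAPT1, 10.6, 6.81 and 6.13 TPM in APT1wt, and 20.4, 13.9 and 15.0 TPM in control libraries (log2 fold change -1.36 ± 0.17). AKR1C1 had 0.864 to 1.99 TPM in shAPT1, 0.0598 to 2.21 TPM in APT1wt and 4.2 to 5.09 TPM in control libraries. It lost the call without shAPT1 replicate 2, without control replicate 1, with transcript length in the fit and in the deposited table. SRXN1, sulfiredoxin, had a log2 fold change of -0.45 ± 0.08. OSGIN1, an oxidative stress-induced growth inhibitor, had -0.81 ± 0.14 and kept the call under 14 of 20 settings.

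Among 10 tested cancer-testis antigens, normally restricted to the germ line, 6 were lower in both lines (60%, against 4.28% of all tested genes). Of the 10, 9 lie on chromosome X, and after the neighbour correction 3 were lower. PAGE5 had 7.90, 5.11 and 5.09 TPM in shAPT1, 0.449, 0.471 and 0.426 TPM in APT1wt, and 15.6, 10.6 and 14.7 TPM in control libraries. MAGEC2 had 1.52, 0.895 and 1.23 TPM in shAPT1, 0.0894, 0 and 0.0834 TPM in APT1wt, and 2.69, 3.26 and 2.39 TPM in control libraries. For both genes shAPT1 lay between APT1wt and control. MAGEB2 was under 0.350 TPM in each engineered library, against 0.632 to 1.37 TPM in control libraries, and lost the call without control replicate 1. SPANXB1, from a family of near-identical genes, had 41.0 to 51 TPM in shAPT1, 44.9 to 52.8 TPM in APT1wt and 77.9 to 80.5 TPM in control libraries, and lost the call after the neighbour correction, with a value of -0.51.

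Inflammatory genes show how the combined contrast and the same-way rule can part. Of 26 tested NF-kappaB and cytokine genes, 13 were lower in the combined comparison but 3 in both lines, since 16 were lower in shAPT1 and 4 in APT1wt. Among all tested genes, 11.8% were lower in the combined comparison and 4.28% in both lines. For shAPT1 and APT1wt taken singly, 11.6% were lower in each. The 1 member of the list higher in both lines was VCAM1, an adhesion molecule for leukocytes, with 0.369 to 0.552 TPM in shAPT1, 0.167 to 0.426 TPM in APT1wt and 0 to 0.0622 TPM in control libraries. RELB, a subunit of NF-kappaB, had 19.3, 13.5 and 16.9 TPM in shAPT1, 15.9, 16.8 and 16 TPM in APT1wt, and 24.4, 26.3 and 24.7 TPM in control libraries (log2 fold change -0.61 ± 0.08). NFKB1, the p105 subunit, had -0.67 ± 0.07 in shAPT1 and -0.27 ± 0.07 in APT1wt, and lost the call without control replicate 3 and after the neighbour correction, where the combined value was -0.39. Of 42 type I interferon response genes, 3 were higher in both lines (7.14%, against 5.49% of all tested genes). In single lines, 9 were higher in shAPT1, and 5 were higher and 15 lower in APT1wt. The shares of all tested genes were 12.8% higher in shAPT1, and 11.8% higher and 11.6% lower in APT1wt. EPSTI1 had a combined log2 fold change of 1.62 ± 0.25 and lies on chromosome 13, and it lost the call after the neighbour correction, at 1.13. IRF7, an interferon regulatory factor, had 0.69 ± 0.13 and kept the call under 15 of 20 settings. It lost the call with DESeq2, with no filter, without shAPT1 replicate 3, and without control replicate 2 or 3. The antiviral GTPase gene MX1 had 0.70 ± 0.10, a call lost with transcript length in the fit and in the deposited table.

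Genes of Notch and Wnt signalling, the pathways named by the study, moved in both directions. Of 33 Notch pathway components, 3 were higher (9.09%, against 5.49% of all tested genes) and 2 lower (6.06%, against 4.28%) in both lines, and their median combined log2 fold change was -0.03. NOTCH1, a Notch receptor, had 12.4, 11.5 and 13.5 TPM in shAPT1, 16.1, 17.0 and 15.7 TPM in APT1wt, and 18.2, 21.5 and 20.9 TPM in control libraries. Its log2 fold change was -0.76 ± 0.07 in shAPT1 and -0.31 ± 0.07 in APT1wt, and it lies on chromosome 9. NOTCH2, another receptor, had 49.0 to 53.5 TPM in shAPT1, 52.6 to 55.8 TPM in APT1wt and 33.0 to 43.0 TPM in control libraries. DTX2, a ubiquitin ligase of the Deltex family on chromosome 7, had a log2 fold change of -0.59 ± 0.07. ADAM10, the protease that cuts Notch receptors at the cell surface, had 0.35 ± 0.06 and kept the call under 10 of 20 settings. NUMB, the inherited inhibitor of Notch in asymmetric division, had 53.9, 57.1 and 54.8 TPM in shAPT1, 57.6, 51 and 55.1 TPM in APT1wt, and 47.9, 46.1 and 48.6 TPM in control libraries, a log2 fold change of 0.21 ± 0.05 that kept the call under 5 of 20 settings. All 5 of these components lost the same-way call after the neighbour correction. The corrected combined values were -0.25 for NOTCH1, 0.25 for NOTCH2, -0.34 for DTX2, 0.29 for ADAM10 and 0.14 for NUMB. Of 17 Notch targets 2 were higher (11.8%) and 2 lower (11.8%), and after the neighbour correction 3 were lower. The target HES1 had 0.58 ± 0.17, a call kept under 8 of 20 settings and lost after the neighbour correction, where the value was 0.64.

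Of 36 Wnt pathway components 1 was higher (2.78%, against 5.49% of all tested genes) and 3 lower (8.33%, against 4.28%), and of 23 Wnt and beta-catenin targets 3 were higher (13%) and 1 lower (4.35%). FZD1, a Wnt receptor on chromosome 7, had 3.95, 3.42 and 4.06 TPM in shAPT1, 4.25, 4.12 and 3.88 TPM in APT1wt, and 5.94, 6.42 and 6.14 TPM in control libraries. The lines overlapped each other and lay below control, and the log2 fold change of -0.67 ± 0.07 was -0.47 after the neighbour correction. PORCN, the acyltransferase that attaches palmitoleate to Wnt proteins, lies on chromosome X and had -0.43 ± 0.09, but -0.05 after the neighbour correction. RNF43, a ubiquitin ligase that removes Wnt receptors from the surface, had 1.65, 2.03 and 1.96 TPM in shAPT1, 0.892, 1.43 and 1.10 TPM in APT1wt, and 0.184, 0.241 and 0.894 TPM in control libraries (log2 fold change 1.94 ± 0.23). APT1wt and control overlapped at 1 library. DKK1, a secreted Wnt inhibitor and Wnt target, had 633, 581 and 537 TPM in shAPT1, 230, 237 and 218 TPM in APT1wt, and 185, 188 and 182 TPM in control libraries, so most of its combined change came from shAPT1.

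Of 32 polarity and asymmetric division genes, 3 were higher (9.38%, against 5.49% of all tested genes) and 1 lower (3.12%, against 4.28%). LLGL2, a member of the Scribble polarity module, had 2.96, 3.84 and 5.11 TPM in shAPT1, 3.11, 5.88 and 3.94 TPM in APT1wt, and 2.31, 1.74 and 1.58 TPM in control libraries (log2 fold change 1.02 ± 0.17). PRKCZ, the atypical protein kinase C zeta, had 1.06 ± 0.19 on summed reads and overlapped control in TPM. It lost the call with transcript length in the fit and in the deposited table. GPSM1, a spindle-orientation protein on chromosome 9, had -0.56 ± 0.09, kept the call under 13 of 20 settings, and lost it after the neighbour correction, at -0.28. Among 32 genes of protein palmitoylation and its removal, 4 were higher (12.5%) and 1 lower (3.12%). The depalmitoylase gene PPT1, whose product acts in lysosomes, had 97.9, 88.5 and 95.2 TPM in shAPT1, 82.8, 82.5 and 83.4 TPM in APT1wt, and 63.2, 69.8 and 71.9 TPM in control libraries (log2 fold change 0.35 ± 0.05). ABHD17C, another depalmitoylase, had 0.33 ± 0.07, kept the call under 15 of 20 settings, and lost it after the neighbour correction, at 0.25. ZDHHC20, a palmitoyltransferase on chromosome 13, had 0.81 ± 0.07, but 0.12 after the neighbour correction.

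Housekeeping lists also held same-way members. Of 38 G1/S and DNA replication genes 1 was higher (2.63%, against 5.49% of all tested genes) and 4 lower (10.5%, against 4.28%). Of 75 nuclear genes of the respiratory chain 2 were higher (2.67%) and 5 lower (6.67%). Of 81 cytosolic ribosomal protein genes 1 was higher (1.23%) and 5 lower (6.17%). In single lines, 41 were lower in shAPT1 and 14 higher in APT1wt, against 11.6% and 11.8% of all tested genes. The ribosomal gene higher in both lines, RPL21, lies on chromosome 13, had a log2 fold change of 0.71 ± 0.08, and 0.05 after the neighbour correction. RPL39L, a ribosomal protein paralog, had 28.1, 36.7 and 36.7 TPM in shAPT1, 23.1, 26.6 and 28.3 TPM in APT1wt, and 53.8, 51.7 and 54.4 TPM in control libraries. Ribosomal protein genes have many processed copies, so these values are uncertain. Together these genes took 4.02%, 4.25% and 4.22% of reads in shAPT1, 4.89%, 4.71% and 4.86% in APT1wt, and 4.84%, 4.54% and 4.58% in control libraries. The engineered libraries minus control gave -0.16 percentage points (two-sided exact permutation test of 6 against 3 libraries, p = 0.524; the smallest p it allows is 0.0238).

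Of 18 tested hormone receptors and luminal regulators, 3 were higher in both lines (16.7%, against 5.49% of all tested genes). PPARG, a nuclear receptor of lipid metabolism, had 21.8, 24.7 and 23.9 TPM in shAPT1, 24.5, 24.2 and 23.8 TPM in APT1wt, and 14.4, 15.9 and 14.9 TPM in control libraries (log2 fold change 0.65 ± 0.08). The thyroid hormone receptor gene THRB had 1.19 ± 0.18, and XBP1, a transcription factor of the unfolded protein response, had 0.37 ± 0.09 and kept the call under 15 of 20 settings. Of 35 genes of the unfolded protein and ATF4 response, 4 were higher (11.4%), XBP1 and PHGDH among them. PHGDH, the first enzyme of serine synthesis, had 8.06, 19.0 and 22.4 TPM in shAPT1, 27.5, 21.8 and 22.1 TPM in APT1wt, and 7.61, 7.77 and 6.86 TPM in control libraries (log2 fold change 1.45 ± 0.23), with shAPT1 replicate 1 close to control. The long non-coding RNA host gene SNHG18, chosen after its values were seen, had 6.21, 7.35 and 6.38 TPM in shAPT1, 5.16, 6.67 and 6.55 TPM in APT1wt, and 1.28, 0.929 and 0.822 TPM in control libraries. Of the gene classes, protein-coding genes moved the same way in 10.8% of 12774 tested, against 4.88% of 615 long intergenic RNAs.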

How the data were processed

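Total RNA of 9 libraries was sequenced. Per the submitters' processing notes, FastQC, Salmon and DESeq2 were used with build GRCh38.p10, without versions or settings. The authors deposited, for each of 199324 transcripts of 58219 genes, Salmon's estimated counts (also called expected counts) and its TPM, and a gene table whose signal was scaled between libraries in a way not given in the sources used here.

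Estimated counts were summed per gene and rounded, genes were kept by filterByExpr, and libraries were scaled by TMM (edgeR 4.0.16, limma 3.58.1, R 4.3.3). All 9 libraries entered a quasi-likelihood fit of 3 groups, tested with equal weight for shAPT1 and APT1wt against control, for each line against control, and between lines, with Benjamini-Hochberg adjustment at 0.05 over 15233 genes. Fold changes are on summed reads and levels are TPM. Errors are SE of the fit, taken as the absolute log2 fold change divided by the square root of the quasi-likelihood F statistic. The steps were tested on simulated data. Positions came from GENCODE 29 (GRCh38), which matched 15189 tested genes, and promoters from RefSeq (GRCh38.p14). Strand use in counting is not given in the sources used here.

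Named genes were LYPLA1 and LYPLA2, the 10 higher and 10 lower protein-coding same-way genes with the largest change in the less changed line, with a mean of at least 1 TPM in either group and no overlap in TPM, and up to 4 members of each list with at least 3 same-way members. Some genes that the rule names are not reported here. The members and the 41 gene lists were chosen with earlier results of these data known. Alternatives were DESeq2 1.42.0, limma-voom, RLE scaling or library totals in place of TMM, no filter, a filter of 20 reads in 3 libraries, a transcript length offset, the deposited table as log2(value + 1) in limma, a replicate block, the 6 engineered libraries as 1 group, leaving out each library, and the neighbour correction. Python 3.11.15 and matplotlib 3.10.9 drew the figures.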

Additional observations from a re-analysis of the deposited data

Results flagged for a closer look

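The direct comparison of shAPT1 with APT1wt, which uses no control library, passed edgeR's test for 39 of the named genes at adjusted p-values between 5.0e-10 and 0.047. Each value is the log2 difference shAPT1 minus APT1wt. LYPLA1, whose changes have opposite signs, gave -1.89. FSTL3, which did not pass in the combined comparison, gave -0.54.

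Among genes higher than control in both lines, the rise was larger in shAPT1 for LYPD6B at 2.73, ADAMTS1 at 2.65, DKK1 at 1.29, RNF43 at 1.12 and NPPB at 0.94. The same held for THBS1 at 0.81, FST at 0.76, CDH11 at 0.72, BMP4 at 0.49, TGFB2 at 0.46, TAGLN at 0.42, SDC2 at 0.42 and ADAM10 at 0.28. It was larger in APT1wt for LTBP3 at -0.87, SMAD6 at -0.63, IRF7 at -0.44 and MYH10 at -0.26. It was also larger in APT1wt for genes of chromosome 13, with LCP1 at -0.63, RPL21 at -0.58, ZDHHC20 at -0.51, COL4A1 at -0.33 and RB1 at -0.22.

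Among genes lower than control in both lines, the fall was larger in APT1wt for MAGEC2 at 4.01, GLB1L2 at 3.82 and PAGE5 at 3.67. The same held for HLA-DPB1 at 0.76, HLA-DMA at 0.51, HLA-DPA1 at 0.50 and HLA-DRB1 at 0.44. It was larger in shAPT1 for TNIP3 at -1.16, CIITA at -0.81, NOTCH1 at -0.45, CDKN1A at -0.43, GPSM1 at -0.41, NFKB1 at -0.39, DTX2 at -0.33 and TNC at -0.31.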

How the results depend on the processing

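With a transcript length offset, 2266 genes passed in the combined comparison (1160 higher, 1106 lower) and 850 moved the same way (500 higher, 350 lower), of which 777 were among the 1488. The deposited table gave 2300 (1074 lower) and 843 (508 higher, 335 lower). With the engineered libraries as 1 group of 6, 1579 passed (884 higher, 695 lower). The neighbour correction, added after seeing the data, left 964 same-way genes (536 higher, 428 lower). Leaving out 1 library gave 2355 to 4508 genes past the threshold (1219 to 2234 higher, 1136 to 2274 lower) and 965 to 1867 same-way genes (563 to 996 higher, 391 to 871 lower). The chromosome 7 median was -0.20 to -0.19 with 1 library left out, -0.18 without a filter, -0.19 in the deposited table and -0.19 with 1 group of 6. That of chromosome 9 was -0.036 without a filter and -0.071 in the deposited table, and that of chromosome X was -0.21 without a filter. The cause of these shifts was not tested. Same-numbered libraries of different groups correlated at -0.051 to 0.103 and differently numbered ones at -0.105 to 0.071. Whether equal numbers share a batch was not tested. With the replicate block 3702 genes passed and 1507 moved the same way. RLE scaling, library totals, DESeq2, limma-voom and the stricter filter kept 1483, 1333, 1288, 1437 and 1454 of the 1488. No named gene that passed in the combined comparison changed sign there under the settings run for it, which were 20 except for LGALS9 and VCAM1 (18), BDKRB1 (19) and MAGEB2 (13). B2M, SMAD7 and FSTL3, which did not pass, ranged from -0.040 to 0.060, -0.23 to 0.14 and -0.02 to 0.16. Genes read in single figures per library, such as LGALS9 in control, are limited by depth.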
